A study of Mus musculus with 6 samples.

Results

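The proteasome genes of mouse bone marrow–derived macrophages (BMMs) were examined in RNA-seq data. Members were all rows of the expression table that map to a protein-coding symbol beginning with Psma, Psmb, Psmc, Psmd, Psme or Psmf and a digit. The inducible immunoproteasome genes Psmb8, Psmb9 and Psmb10 were set apart. The rule found 42 of the 23504 genes in the table, namely 15 core genes, 20 genes of the regulatory cap and its assembly chaperones, 6 genes of activators and the inhibitor PI31 (the activator class), and Psmc3ip, which encodes a meiotic recombination protein and shares only the letters of the symbol. Psmb11, the thymic beta subunit, was not among the rows analysed here.

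The 6 libraries came from BMMs of C57BL/6 mice, aged 6 to 8 weeks and male by the study's methods, grown with M-CSF. DASA-58, an activator of the glycolytic enzyme pyruvate kinase M2 (PKM2), was given with RANKL to 3 samples, and the other 3 received the same volume of the solvent DMSO. RNA was taken after 3 days. By the study's results RANKL, the cytokine that drives macrophages toward osteoclasts, was in both groups, whereas the wording of its methods does not settle this for DMSO. The methods write DASA-48 where the labels have DASA-58, and no concentration was found for this experiment. The sources do not say whether the replicates were separate cultures or animals, so that each p-value below measures the spread between these libraries, which may be technical.

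The proteasome degrades proteins tagged with ubiquitin. Its barrel-shaped core has outer rings of alpha subunits and inner rings of beta subunits, with the active sites inside. The cap binds the ubiquitin chain, removes it in the lid, and unfolds the substrate with the ATPases of its base. Separate activators (PA28 and PA200) can dock on the core instead of the cap. In macrophages and osteoclasts this machine supplies peptides for antigen presentation and degrades signalling proteins such as the inhibitor of NF-kB.

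Levels are FPKM, fragments scaled to exon length and library depth. Differences are log2 fold changes of (FPKM + 1), DASA-58 minus DMSO, a scale that understates the change of low genes. They were tested with limma over the 10965 genes that averaged 1 FPKM or more, with Benjamini-Hochberg (BH) adjustment. All 42 members passed this limit. Whole fragments could be recovered from the FPKM steps, with 18191560 to 18968556 fragments per library, and 37 members had over 1000 fragments in every library. The median standard error of the members was 0.036 on the log2 scale, where counting alone would give 0.023. As a check of the cells, the summed FPKM of 10 macrophage markers was 16490 to 17330 with DMSO and 17430 to 19740 with DASA-58, most of it from Lyz2, whose values overlapped between the groups, and without Lyz2 it was 1773 to 1814 and 1970 to 1984. The summed FPKM of 10 osteoclast markers was 777.8 to 833.4 with DMSO and 449.1 to 467.3 with DASA-58, lower in each DASA-58 library than in each DMSO library.

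Most members had values a few percent lower with DASA-58, with the median core, cap and activator gene at 93.37%, 96.41% and 95.15% of DMSO. At an adjusted p under 0.05, 6 members fell (14.3% of 42) and 0 rose, where 7.28% of all genes tested fell and 4.24% rose, 11.5% in all (limma, BH). At an unadjusted p under 0.05, 17 members were lower and 0 higher, where all genes tested gave 18.0% and 9.83%. The log2 fold change was below 0 in 39 members (92.9%), against 59.8% of all genes tested. In 20 members (47.6%) the highest DASA-58 value was below the lowest DMSO value, against 21.6% of all genes tested, and in 0 members was the order reversed, against 11.8%. The members also had higher levels, with a median of 55.7 FPKM beside 8.26 FPKM for all genes tested. The part of this difference in level in the shares above was not tested. The median log2 fold change of the members was -0.061, and that of all genes tested was -0.028. The scaling between libraries moved the share of lower genes. With the libraries centred on their median gene, 34 members stayed below 0 and the members' median was -0.034. In that fit 5517 of the 10965 genes tested were below 0, with a median of -0.00078. With equal library totals the values were 41 members and -0.078, and for all genes tested 7119 and -0.042.

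**Figure D1:**
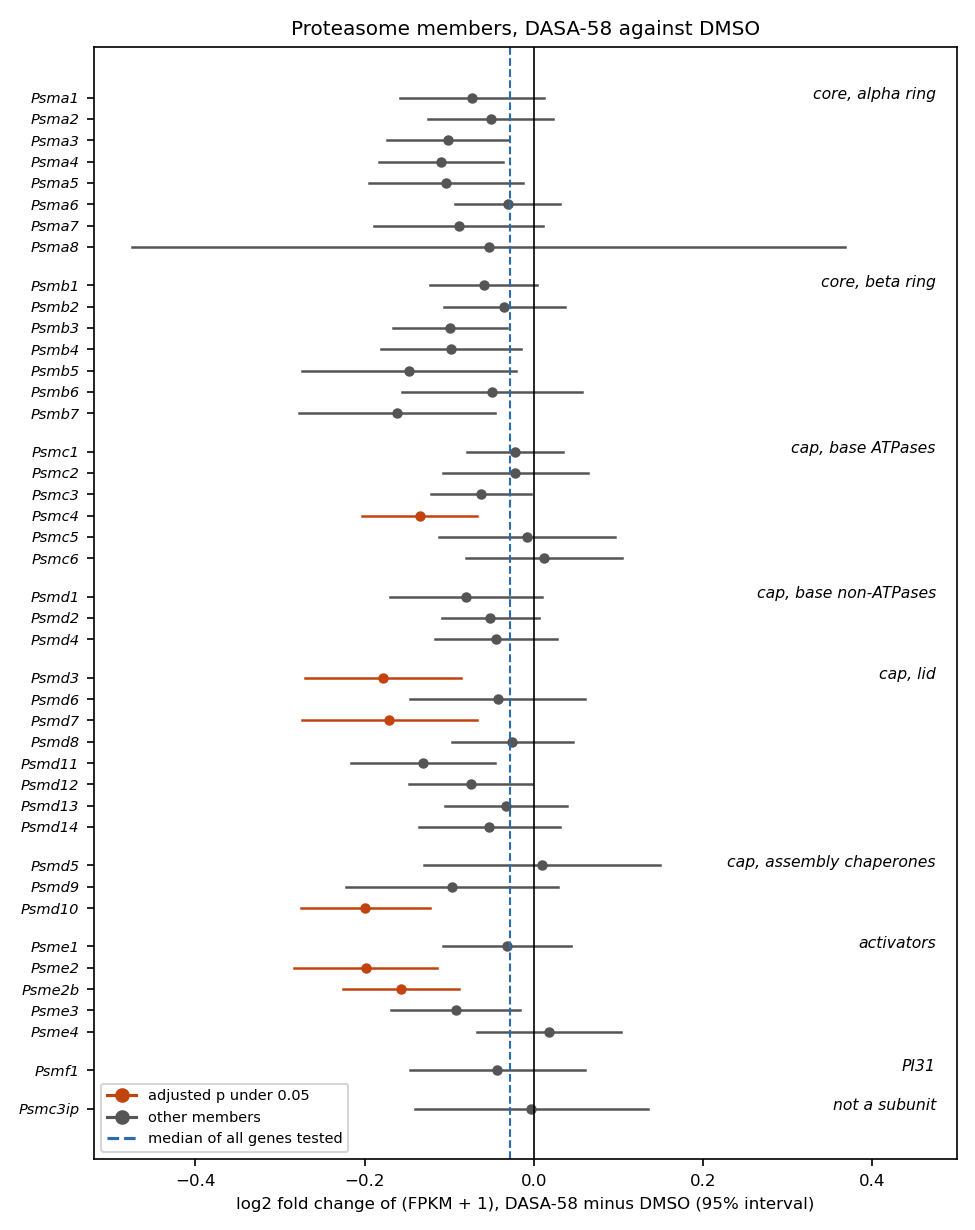
Log2 fold change of (FPKM + 1), DASA-58 minus DMSO, of the 42 members, grouped by their place in the complex, with 95% intervals from limma. Points in orange are the 6 members with an adjusted p under 0.05, and the dashed line is the median of all genes tested, -0.028. All but 3 points lie left of 0.

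The shift was present in each DASA-58 library. The median deviation of the 42 members from their DMSO means was -0.008, 0.010 and -0.007 in DMSO replicates 1, 2 and 3, and -0.078, -0.057 and -0.053 in DASA-58 replicates 1, 2 and 3, on the log2 scale. For all genes tested it was 0.004, -0.007 and 0.003 with DMSO and -0.022, -0.022 and -0.033 with DASA-58. The DASA-58 libraries were thus lower than each DMSO library in both sets of genes, with a larger distance for the members. Osteoclast markers moved in the same libraries, with 9 of 9 tested markers lower (limma, BH, background 7.28%) and a median log2 fold change of -0.87. The part of the osteoclast share of the cells in the proteasome values was not tested, and in bulk RNA fewer cells of a type and less RNA per cell cannot be told apart.

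**Figure D2:**
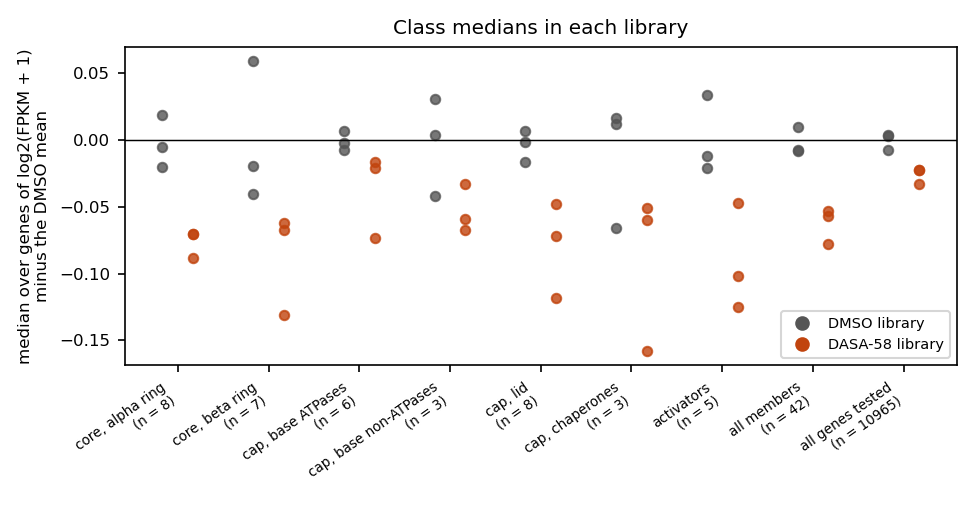
Median over the genes of each class of log2(FPKM + 1) minus the mean of the DMSO libraries, for each of the 6 libraries (points), with the number of genes per class. For all 42 members the DASA-58 libraries lie between -0.078 and -0.053 and the DMSO libraries between -0.008 and 0.010.

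The log2 fold change was below 0 in all 15 core genes (59.8% of all genes tested), also under each other scaling between libraries. Of these 15 genes, 0 passed the test (11.5% of all genes tested). Their median log2 fold change was -0.089. The 8 alpha genes had a median of -0.081 and a range of -0.110 to -0.031. The 7 beta genes had a median of -0.098 and a range of -0.16 to -0.035. In 8 of the 15 core genes (3 alpha, 5 beta) there was no overlap between the groups, against 21.6% lower without overlap among all genes tested, and 7 had an unadjusted p under 0.05, against 18.0%.

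The 3 beta genes with active sites had differences below 0, none past the test, and their intervals overlapped. Psmb5 encodes the beta5 subunit, whose chymotrypsin-like site is the main target of bortezomib. It was at 75.5, 84.1 and 72.8 FPKM in the DMSO libraries and at 70.1, 72.1 and 67.0 FPKM in the DASA-58 libraries. All DASA-58 values were below the lowest DMSO value, and the difference was -0.15 (standard error 0.055, 95% interval -0.27 to -0.021, limma BH-adjusted p = 0.13). Without DMSO replicate 2, the highest library, the difference was -0.088, and with voom weights the adjusted p was 0.047. Psmb7, the gene of the trypsin-like beta2 subunit, was at 27.2, 29.3 and 26.0 FPKM with DMSO and at 24.2, 23.6 and 25.6 FPKM with DASA-58. Its groups also did not overlap, with a difference of -0.16 (95% interval -0.28 to -0.046, limma BH-adjusted p = 0.078), the lowest of the core. With voom weights its adjusted p was 0.012, with equal library totals 0.038 and with a filter at 5 FPKM 0.048. Psmb6, the gene of the caspase-like beta1 subunit, was at 109, 119 and 106 FPKM with DMSO and at 105, 106 and 111 FPKM with DASA-58. These groups overlapped, and the difference was -0.049 (95% interval -0.16 to 0.057, limma BH-adjusted p = 0.54), or -0.00075 without DMSO replicate 2.

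Each of these subunits has an inducible counterpart that replaces it in the immunoproteasome, which interferon induces. Psmb8 was at 15.4, 15.9 and 15.9 FPKM with DMSO and at 14.1, 13.6 and 15.1 FPKM with DASA-58. All 3 DASA-58 values were lower, with a difference of -0.13 (limma BH-adjusted p = 0.10). Psmb9 was at 15.1, 17.2 and 15.8 FPKM with DMSO and 14.8, 15.7 and 16.8 FPKM with DASA-58, and Psmb10 at 53.1, 56.3 and 52.4 FPKM with DMSO and 51.2, 51.8 and 54.3 FPKM with DASA-58. Both overlapped between the groups, with differences of -0.020 and -0.040. Of the 3 inducible genes, 0 passed the test in either direction (11.5% of all genes tested), and their median was -0.040. Per kilobase of the principal transcript, the inducible gene made up 26.1%, 24.7% and 27.4% of the Psmb5 and Psmb8 sum with DMSO and 25.8%, 24.6% and 28.1% with DASA-58. Psmb9 made up 13.8% to 14.7% of its sum with Psmb6 with DMSO and 14.0% to 14.9% with DASA-58, so the groups overlapped in both pairs. Psmb10 made up 46.3%, 45.9% and 47.1% of its sum with Psmb7 with DMSO and 48.3%, 49.2% and 48.4% with DASA-58. The groups did not overlap in this pair, and 3 against 3 libraries cannot go below an exact two-sided permutation p of 0.10. The size of each share depends on the length by which fragments were divided. Over all 6 libraries Psmb10 averaged 53.2 FPKM and Psmb7 26.0 FPKM. Per kilobase of the principal transcript they stood at 69.2 and 76.6.

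Among the non-catalytic beta genes, Psmb1 had the highest FPKM of all members. It was at 187, 187 and 180 FPKM with DMSO and at 173, 178 and 180 FPKM with DASA-58, with a difference of -0.059 (limma BH-adjusted p = 0.21). Its DASA-58 values were all below the lowest DMSO value of 180.4, the closest of them at 179.7. Psmb3 and Psmb4 showed differences of -0.099 and -0.098 (limma BH-adjusted p = 0.068 and 0.12) without overlap, and Psmb2 a difference of -0.035 with overlap.

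In the alpha ring, Psma3, Psma4 and Psma5 were the genes without overlap, with differences of -0.10, -0.11 and -0.10 (limma BH-adjusted p = 0.077, 0.065 and 0.13), that of Psma5 at -0.065 without DMSO replicate 3. The adjusted p of Psma4 was 0.047 with a filter at 5 FPKM, 0.044 with voom weights and just under 0.05 with equal library totals, and Psma3 and Psmb3 passed with equal library totals at 0.045 and 0.036. Psma1, Psma2 and Psma7 lay between -0.089 and -0.051 and overlapped between the groups. Psma6, the alpha gene with the highest FPKM, was at 157, 161 and 164 FPKM with DMSO and at 155, 160 and 157 FPKM with DASA-58, a difference of -0.031 (95% interval -0.093 to 0.031). Psma8, the testis paralog of Psma7, was barely expressed. It was at 0.933, 1.10 and 2.01 FPKM with DMSO and at 1.54, 1.30 and 0.872 FPKM with DASA-58, from 28 to 62 fragments. Its interval, -0.47 to 0.37, leaves a change of either sign possible.

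The cap class held 4 of the 6 genes that fell, in the lid, the base ATPases and the assembly chaperones. Of its 20 genes, 4 fell (7.28% of all genes tested), 18 were below 0 (59.8% of all) and 9 lay lower without overlap (21.6% of all), and the median log2 fold change was -0.052.

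Psmd10 encodes gankyrin, a chaperone that helps to assemble the base and that also binds the retinoblastoma protein. The gene lies at chrX:140948429-140956728 on the minus strand (GRCm38, GENCODE). It was at 61.2, 63.5 and 64.5 FPKM in the DMSO libraries and at 56.4, 54.5 and 53.5 FPKM in the DASA-58 libraries. The 2 groups were separated by more than the range within either of them. Psmd10 fell to 86.89% of DMSO, with a difference of -0.20 (standard error 0.033, limma BH-adjusted p = 0.0092). The call ended only without variance shrinkage among the alternatives tried (limma BH-adjusted p = 0.054). The other base chaperones had lower levels and overlapped between the groups. Psmd9 was at 6.96, 6.78 and 6.35 FPKM with DMSO and at 5.79, 6.42 and 6.38 FPKM with DASA-58, with a difference of -0.097, or -0.056 without DASA-58 replicate 1. Psmd5 showed a difference of 0.009 with an interval of -0.13 to 0.15.

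Psmd3 and Psmd7 were the genes of the lid that fell. Psmd3 encodes Rpn3, a scaffold of the lid, and lies at chr11:98682554-98695979 on the plus strand. It was at 31.8, 31.0 and 29.6 FPKM with DMSO and at 26.1, 28.0 and 27.2 FPKM with DASA-58. No DASA-58 library reached the lowest DMSO library, and the gene fell to 88.01% of DMSO (difference -0.18, standard error 0.040, limma BH-adjusted p = 0.029). Psmd7 encodes Rpn8, the partner of the deubiquitinase Rpn11, and lies at chr8:107580381-107588464 on the minus strand. It was at 62.5, 68.3 and 61.3 FPKM with DMSO and at 55.9, 58.4 and 55.9 FPKM with DASA-58. Again the groups did not overlap, and the gene fell to 88.59% of DMSO (difference -0.17, standard error 0.044, limma BH-adjusted p = 0.047). Over the 6 fits that each drop a single library, log2 fold changes ran from -0.206 to -0.153 for Psmd3 and -0.201 to -0.124 for Psmd7, and both calls were lost in most of these fits. Without DMSO replicate 1, DMSO replicate 2, DASA-58 replicate 1 or DASA-58 replicate 3 the adjusted p of Psmd3 was 0.093, 0.069, 0.089 and 0.082, and without the same libraries that of Psmd7 was 0.086, 0.069, 0.13 and 0.13, and 0.074 without DASA-58 replicate 2 (limma, BH).

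The other members of the lid were below 0 without passing the test. Psmd11, the gene of Rpn6, which clamps the lid to the core, had the lowest FPKM of the lid. It was at 16.2, 15.3 and 15.7 FPKM with DMSO and at 14.3, 14.5 and 14.0 FPKM with DASA-58, with no overlap and a difference of -0.13 (95% interval -0.22 to -0.046, limma BH-adjusted p = 0.059). Its adjusted p was 0.047 with a filter at 5 FPKM and 0.019 with voom weights. Psmd8, the gene of Rpn12, had the highest FPKM of the lid, with 120, 123 and 119 FPKM with DMSO and 114, 121 and 120 FPKM with DASA-58. Those values overlapped, with a difference of -0.025. Psmd14, which encodes the deubiquitinase Rpn11 itself, showed a difference of -0.053 (95% interval -0.14 to 0.030). Psmd6, Psmd12 and Psmd13 lay at -0.043, -0.075 and -0.033.

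Of the 6 ATPases of the base, Psmc4 fell and the others did not pass the test. Psmc4 encodes Rpt3 and lies at chr7:28041707-28050101 on the minus strand. It was at 64.5, 67.3 and 65.9 FPKM with DMSO and at 58.9, 59.7 and 61.1 FPKM with DASA-58. All DASA-58 values were below all DMSO values, and Psmc4 fell to 90.92% of DMSO (difference -0.14, standard error 0.029, limma BH-adjusted p = 0.025). The call was lost with each single library left out other than DMSO replicate 1, with an adjusted p of 0.061 and 0.056 when DMSO replicates 2 and 3 were dropped in turn, and of 0.086, 0.081 and 0.055 when DASA-58 replicates 1, 2 and 3 were (limma, BH). Psmc1 (Rpt2), the ATPase with the highest FPKM, was at 114, 113 and 115 FPKM with DMSO and at 113, 111 and 113 FPKM with DASA-58. Psmc2 (Rpt1), that with the lowest, was at 32.3, 31.4 and 32.3 FPKM with DMSO and at 30.3, 32.9 and 31.4 FPKM with DASA-58. Both had a difference of -0.022, within intervals of -0.079 to 0.035 and -0.11 to 0.064. Psmc2 overlapped between the groups. Psmc1 did not, but its lowest DMSO value and its highest DASA-58 value were both 113.4 FPKM when rounded. Psmc3 (Rpt5) showed a difference of -0.062 (95% interval -0.12 to -0.0029, limma BH-adjusted p = 0.16) without overlap. Psmc5 and Psmc6 (Rpt6 and Rpt4) lay at -0.008 and 0.012 and overlapped. The sign of Psmc1, Psmc2, Psmc5 and Psmc6 changed with the scaling between libraries, so that no direction is given for them. The median of the 6 ATPases, -0.022, was close to that of all genes tested.

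The 3 members of the base that are no ATPases did not pass the test. Psmd2 (Rpn1), the docking site for proteins that deliver ubiquitinated cargo, was at 95.9, 94.1 and 96.8 FPKM with DMSO and at 92.8, 91.7 and 92.2 FPKM with DASA-58. It did not overlap, with a difference of -0.051 (limma BH-adjusted p = 0.22). Psmd1 (Rpn2), a scaffold, was at 20.5, 21.4 and 21.6 FPKM with DMSO and at 19.96, 19.3 and 20.6 FPKM with DASA-58, a difference of -0.080. Psmd4 (Rpn10), a ubiquitin receptor, showed a difference of -0.044.

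**Figure D3:**
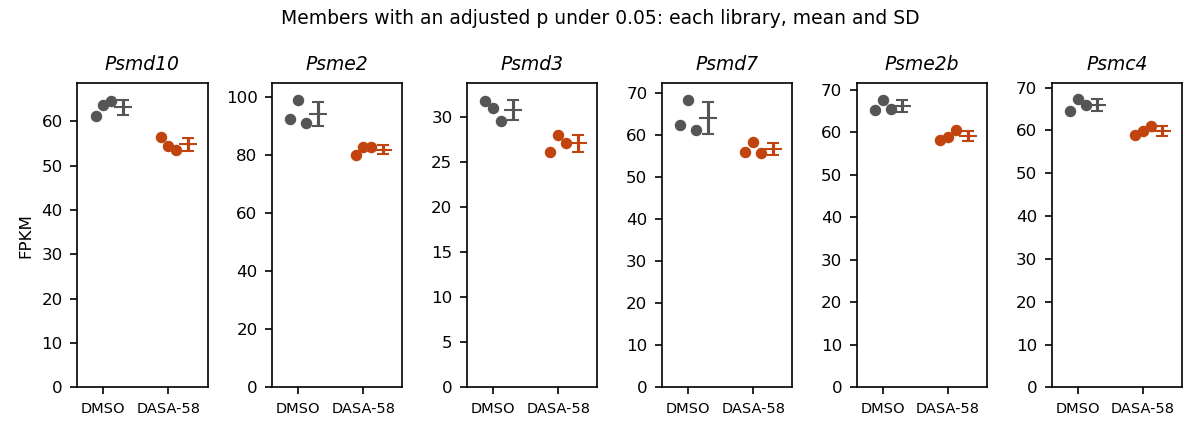
FPKM of the 6 members with an adjusted p under 0.05 in each of the 3 DMSO and 3 DASA-58 libraries (points), with mean and SD beside them; each axis starts at 0. The groups do not overlap in any panel, and the DASA-58 means are at 86.89% (Psmd10) to 90.92% (Psmc4) of DMSO.

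Among the activators, the gene of PA28 beta fell and that of its partner PA28 alpha did not pass the test. Psme2, the gene of PA28 beta, lies at chr14:55587441-55591113 on the minus strand. It was at 92.4, 98.8 and 91.1 FPKM with DMSO and at 80.0, 82.6 and 82.8 FPKM with DASA-58. The groups did not overlap, and Psme2 fell to 86.94% of DMSO (difference -0.20, standard error 0.037, limma BH-adjusted p = 0.013). Without DASA-58 replicate 1 the adjusted p was 0.052 (limma, BH). Psme1, the gene of PA28 alpha, with which PA28 beta forms 1 ring, was at 60.3, 65.0 and 62.7 FPKM with DMSO and at 61.1, 61.1 and 61.4 FPKM with DASA-58. Its values overlapped, with a difference of -0.032 (95% interval -0.11 to 0.044, limma BH-adjusted p = 0.58). The interval of Psme1 lies above that of Psme2, -0.28 to -0.11. The difference between these genes was not tested.

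Psme2b, at chr11:48945354-48946190 on the minus strand, is a protein-coding copy of Psme2 whose exon covers its whole span of 837 bases. It was at 65.1, 67.7 and 65.5 FPKM with DMSO and at 58.2, 58.8 and 60.5 FPKM with DASA-58. It fell to 89.52% of DMSO (difference -0.16, standard error 0.030, limma BH-adjusted p = 0.015), and without DASA-58 replicates 1 or 2 the adjusted p was 0.058 and 0.056 (limma, BH). The transcripts of both genes are 99.37% identical over 794 bases. The coding sequences have 720 bases each and differ at 5 of them, counted from 1 at the first coding base of Psme2, namely C312T, A369G, C489T, C519T and C543T. Within the 794 aligned bases, reads that cover none of the differing bases cannot be assigned to 1 gene. Shown here are coding bases 484 to 543 of each in the GENCODE transcripts, with the 3 differing bases of this stretch in capitals.
Psme2: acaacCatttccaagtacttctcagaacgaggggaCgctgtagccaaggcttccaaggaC
Psme2b: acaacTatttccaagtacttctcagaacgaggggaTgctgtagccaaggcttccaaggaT
The split of fragments between Psme2 and Psme2b is therefore uncertain, and their fall is best read as that of the pair. Together they had 217.6, 230.9 and 215.4 FPM (fragments scaled to library depth, not to length) with DMSO and 189.8, 194.9 and 196.8 with DASA-58, which is 87.58% of DMSO and again without overlap.

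The remaining activator genes did not pass the test. Psme3, the gene of the nuclear PA28 gamma, showed a difference of -0.093 (95% interval -0.17 to -0.017, limma BH-adjusted p = 0.11) without overlap. Psme4, the gene of PA200, was at 12.7, 12.1 and 12.8 FPKM with DMSO and at 12.6, 12.8 and 12.7 FPKM with DASA-58, a difference of 0.018 (95% interval -0.068 to 0.10). Psmf1, the gene of PI31, was at 6.94, 6.54 and 6.77 FPKM with DMSO and at 6.65, 6.26 and 6.65 FPKM with DASA-58, with overlap and a difference of -0.043. The activator class as a whole had 5 of 6 genes below 0 (59.8% of all genes tested), 2 that fell (7.28% of all), 3 that lay lower without overlap (21.6% of all) and a median of -0.068. The 2 that fell are the pair Psme2 and Psme2b, whose reads cannot be fully separated. Psmc3ip, which is no subunit, was at 6.26, 6.27 and 5.89 FPKM with DMSO and at 5.78, 6.71 and 5.92 FPKM with DASA-58, at 99.91% of DMSO.

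Nearly identical copies concern the core too. By alignment of transcripts on the same strand (at least 90% identity over at least 300 bases), 13 members had a copy among the genes of the table, 17 copies in all, and for 7 members a copy had at least 1 FPKM. Psme2 and Psme2b each count here as a copy of the other. In GENCODE 16 members had a copy, and copies absent from the table could not be added. Gm13835, a processed pseudogene at chr6:31141979-31142663, matches Psma3 at 100% over 685 bases and held 33.0% of their summed fragments. The sum of Psma3 and Gm13835 was 168.8, 170.2 and 162.9 FPM with DMSO and 155.6, 152.8 and 159.7 with DASA-58, or 93.29% of DMSO, beside 92.92% for Psma3 alone. The sum of Psma5 with its pseudogenes Gm8394 and Gm12989 was at 92.75% of DMSO, and that of Psmb5 with Gm3375 at 91.23%. With the fragments of all copies in the table added, an alternative chosen after seeing the data, 6 of 41 members were lower at an adjusted p under 0.05. Psma4 was among them at 0.045 (limma, BH). In that fit 798 of the 10958 genes tested were lower.

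**Figure D4:**
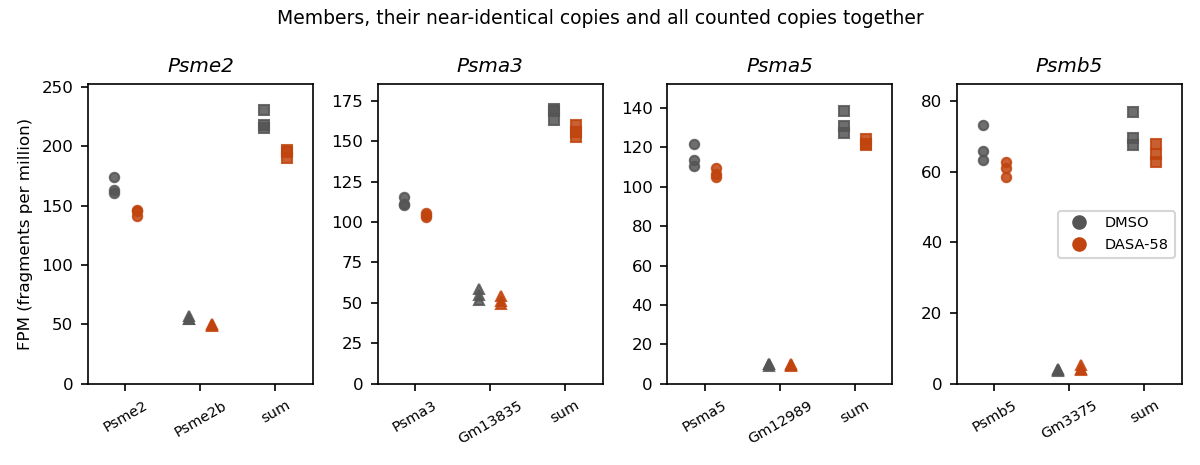
FPM (fragments scaled to library depth) in each DMSO and DASA-58 library (points) for Psme2, Psma3, Psma5 and Psmb5, for a nearly identical copy of each, and for the sum with all counted copies. The sums of Psme2 with Psme2b lie at 215.4 to 230.9 with DMSO and 189.8 to 196.8 with DASA-58.

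The order of subunit levels depended on the length by which fragments were divided. In the assembled core each position is filled in equal number, those of Psmb5, Psmb6 and Psmb7 also by their inducible counterparts. These are numbers of proteins, whereas the levels here are of RNA. Among the 14 core genes without Psma8 the FPKM ranged 6.96-fold, from 26.0 for Psmb7 to 181 for Psmb1. The FPKM of the table used the length of all exons of a gene together, which for Psmb7 is 3421 bases although its principal transcript has 1160. Divided by the length of the principal transcript, the longest where a gene has several, the levels ranged 6.73-fold. They ran from 38.1 for Psma3 to 256 for Psmb6, with a median of 138. For Psma3 this length was 2846 bases, and its level leaves out the 33% of summed fragments that Gm13835 held. On the transcript scale Psmb7 stood at 76.6 and Psmb1 at 107, so neither end of the order was the same gene on both scales. The fragments of Psmb1 rest on a length of 1036 bases, the shortest that gives whole fragments in all libraries, where GENCODE has 4595, so that its level on the transcript scale is less certain. The lengths of Psma7, Psma8, Psmb5 and Psmc6 were found in the same way. Compared with DMSO, each gene's percentage does not depend on this length.

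**Figure D5:**
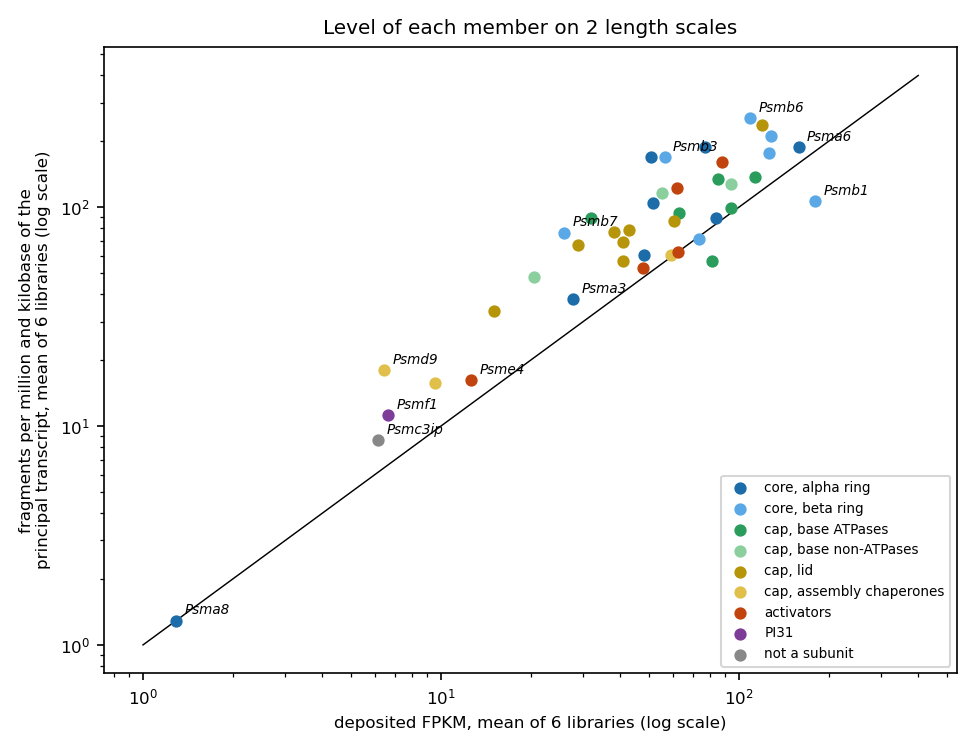
Mean level of each of the 42 members over 6 libraries, as deposited FPKM (x axis) and as fragments scaled to depth and to the length of the principal transcript (y axis), both on log scales and coloured by class; the line marks equal values. Psmb7 stands at 26.0 and 76.6, Psmb1 at 181 and 107, and Psma8 at 1.29 on both.

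Genes that make, regulate or work with the proteasome were described from lists, with no test of a list. Nfe2l2, which encodes the transcription factor NRF2, rose, and Nfe2l1, whose product restores proteasome gene expression when the proteasome is inhibited, did not pass the test. Nfe2l2 was at 60.04, 58.1 and 62.9 FPKM with DMSO and at 67.4, 67.1 and 69.4 FPKM with DASA-58. Its groups did not overlap, and it rose to 112.6% of DMSO (difference 0.17, standard error 0.036, limma BH-adjusted p = 0.022). Nfe2l1 was at 49.7, 48.2 and 47.9 FPKM with DMSO and at 51.2, 50.3 and 49.1 FPKM with DASA-58, with a difference of 0.045 (95% interval -0.024 to 0.11, limma BH-adjusted p = 0.37). Of the 13 tested genes of this list, 1 rose (4.24% of all genes tested), 0 fell (7.28% of all) and the median was 0.015.

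The core element bound by NRF1 and NRF2 was searched in promoters, because both factors are known to bind at proteasome genes under stress. RefSeq promoters of GRCm38.p6, 250 bases before to 50 after the start, were found for 35 of the 42 members (38 promoters). The letters TGACNNNGC, on either strand, were in 6 of the 38 (15.8%) and in 12.4% of 32851 promoters. The matches are printed with 10 bases on each side where the window holds them, on the strand of the gene, with the match in capitals.
Psmb5, chr14:54618024-54618052, minus strand: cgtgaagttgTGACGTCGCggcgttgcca
Psmb6, chr11:70525338-70525366, plus strand: ctaaagagagTGACGGAGCgctttacgac
Psmc6, chr14:45329587-45329615, plus strand: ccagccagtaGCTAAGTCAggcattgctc
Psmd9, chr5:123228149-123228177, plus strand: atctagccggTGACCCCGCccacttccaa
Psmd12, chr11:107479278-107479299, plus strand: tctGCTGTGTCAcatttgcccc
Psme4, chr11:30771758-30771786, plus strand: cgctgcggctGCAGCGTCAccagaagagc
Of the 6 genes with a match, 0 passed the test, beside 11.5% of all genes tested, and 6 genes are too few to read a difference from that share. Of the genes that fell, Psmc4, Psmd10, Psme2 and Psme2b had an entry and 0 of these 4 held the letters, beside 12.4% of all promoters. The letters CCAAT, the box of the factor NF-Y, were in 13 of the 38 promoters (34.2%) and in 37.4% of all promoters, among the genes that fell in Psmd10. A match is a description of the letters, and its absence says nothing about a factor.

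Of the 5 chaperones that assemble the core (Psmg1 to Psmg4 and Pomp), 5 were below 0 (59.8% of all genes tested). The test was passed by 0 of them (11.5% of all), and their median was -0.043. The counts below stand beside 7.28% of all genes tested that fell and 4.24% that rose. Of 17 tested proteins that bind the proteasome, such as shuttle proteins and deubiquitinases, 1 fell, 0 rose and the median was -0.063. The gene that fell was Zfand5, whose product stimulates the proteasome, from 24.8 to 20.9 FPKM (difference -0.24, limma BH-adjusted p = 0.040). Adrm1 and Sem1, whose symbols fall outside the rule, were counted in this list. Their differences were -0.11 and -0.048 (limma BH-adjusted p = 0.19 and 0.59), with 13 genes of the list below 0 and 4 above. Of 9 ubiquitin genes and enzymes of ubiquitin activation and transfer, 0 passed the test and the median was -0.025. Of 13 tested genes of the segregase p97, which pulls substrates out of membranes and complexes, and its cofactors, 2 fell and 0 rose, with a median of -0.059. They were Vcp, the gene of p97, at 91.5% of DMSO, and Nploc4 at 91.7% (limma BH-adjusted p = 0.042 and 0.043). Calls of genes in the lists were not examined under the alternative fits.

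Counts of markers of other cells stand beside the same 7.28% and 4.24%. Of 7 tested neutrophil markers 4 fell and 0 rose, and the FPKM sum over the list was 174.1 to 177.3 with DMSO and 136.5 to 142.6 with DASA-58. Of 10 macrophage markers 2 fell (Cd14 and Cx3cr1) and 4 rose (Adgre1, Mrc1, Mertk and Cd68). The summed FPKM of stromal markers was 34.07 to 36.36 with DMSO and 34.76 to 35.52 with DASA-58, with 0 of 3 tested markers changed. For T and NK cell markers (1 tested) and B cell markers (2 tested) 0 changed, and 0 dendritic cell markers reached 1 FPKM. The part of the neutrophil markers in the proteasome values was not tested.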

How the data were processed

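RNA of 6 BMM libraries (3 DMSO, 3 DASA-58, grouped by the labels) was analysed. The authors deposited 1 table of FPKM, normalized to exon length and library depth. The submitters' processing notes name HISAT2 2.1.0, HTSeq 0.6.0 and mm8, and the use of strand is not given in the sources used here. Symbols, lengths and coordinates were taken from GENCODE M21 (GRCm38), with a symbol for 23455 identifiers and none for 49. Whole fragments, within 0.02 of a whole number, were recovered for 99.1% of genes (37 members with the GENCODE length, 5 with a fitted one). If strand was not used, reads of overlapping genes are mixed. FPKM scale each library by its depth alone.

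Log2(FPKM + 1) was compared with limma 3.58.1 in R 4.3.3 (lmFit, eBayes with trend, 10965 genes averaging 1 FPKM or more, Benjamini-Hochberg adjustment) over all 6 libraries without a block, beside exact permutation tests in SciPy 1.17.1. The fit was tested on simulated log2 values, where it missed all changes of the smallest simulated size and made false calls above the nominal share. All members are named, with every library's value for those past the test, the catalytic genes and the highest and lowest FPKM of each subclass. Members and lists were chosen with earlier results of these data known. Alternatives covered pseudocounts, filters, scalings, variance models, voom weights, the block and each library left out, and copies were added after seeing the data. Intervals cover counting error and the spread of 3 libraries per group. Tables and plots used pandas 2.3.3, numpy 2.4.6 and matplotlib 3.10.9 in Python 3.11.15.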

Additional observations from a re-analysis of the deposited data

How the results depend on the processing

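No alternative gave a member that rose, at an adjusted or an unadjusted p under 0.05 (limma). The number of members that fell, 6 as reported, was 0 without variance shrinkage (15 at an unadjusted p under 0.05, limma), 2 with no filter on low values, 2 with no trend in the variance, 3 with median centring, 3 with a trimmed mean of log ratios, 10 with equal library totals and 11 with voom weights. With each library left out it was 1 to 5, the 1 without DASA-58 replicate 1. With the replicate number as a block it was 5, and with a filter at 5 FPKM it was 9 of 41 members. The number of all genes tested that fell moved too, with 798 of 10965 as reported. It was 314 without variance shrinkage, 515 with no trend, 504 with median centring and 523 with the trimmed mean. It was 372 of 23504 with no filter and 844 of 7179 with a filter at 5 FPKM. With equal library totals it was 958, and with voom weights 1324 of 10962. With each library left out it was 387 to 603, and 579 with the block. Deviations from the group means had correlations of -0.0155, 0.0157 and -0.0162 between same-numbered libraries. Between libraries of unlike number they were -0.0461 to 0.0608. No shared deviation by number was thus seen, which cannot show whether same-numbered samples were paired by design. Of all genes called, 63.2% were lower as deposited, 45.8% with centring, 46.8% with the trimmed mean, 49.5% with quantile normalization and 71.3% with equal totals.

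The median log2 fold change of each class stayed below 0 in every alternative tried. For the core it was -0.062 with centring and -0.064 with the trimmed mean. For the cap it was -0.039 with quantile normalization, -0.069 with equal totals, -0.025 with centring and -0.027 with the trimmed mean. For the activator class it was -0.058 with a pseudocount of 5, -0.046 with quantile normalization, -0.084 with equal totals, -0.041 with centring, -0.043 with the trimmed mean and -0.043 with copies added. With libraries left out the ranges were -0.093 to -0.075, -0.062 to -0.047 and -0.083 to -0.065. The median of all genes tested was -0.00078 with centring, -0.0027 with the trimmed mean, -0.0014 with quantile normalization and -0.042 with equal totals.

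Of 42 members, 9 changed sign under some alternative. With centring Psmc1 was at 0.0047, Psmc2 at 0.0048, Psmc3ip at 0.024, Psmc5 at 0.019 and Psmd8 at 0.0014. With the trimmed mean Psmc1 was at 0.0028, Psmc2 at 0.0029, Psmc3ip at 0.022 and Psmc5 at 0.017. With quantile normalization Psmc2 was at 0.007 and Psmc3ip at 0.022, and with equal totals Psmc6 was at -0.005 and Psmd5 at -0.006. With libraries left out the log2 fold change was -0.18 to 0.14 for Psma8, -0.052 to 0.005 for Psmc2, -0.06 to 0.033 for Psmc3ip, -0.034 to 0.034 for Psmc5, -0.019 to 0.045 for Psmc6, -0.054 to 0.066 for Psmd5 and -0.007 to 0.035 for Psme4. The cause was not tested. Of the members that fell, Psmd10 kept its call in 18 of 19 alternatives, Psme2 in 16 of 19, Psme2b in 14 of 18, Psmc4 and Psmd3 in 9 of 19 each and Psmd7 in 8 of 19. Depth limits Psma8, with 28 to 62 fragments.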

Other observations

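Other large complexes were set beside the proteasome, as values only. Of the 8 subunits of the chaperonin CCT, which folds actin and tubulin, 5 fell (Cct6a, Cct5, Cct3, Cct2 and Cct8) and 0 rose, with 8 below 0 and a median log2 fold change of -0.13 (limma, BH, where 7.28% of all genes tested fell). Cct6a was at 49.4, 49.0 and 50.8 FPKM with DMSO and at 43.4, 44.0 and 43.3 FPKM with DASA-58, with no overlap (limma BH-adjusted p = 0.0059). The summed FPKM of CCT was 570.2 to 584.8 with DMSO and 524.7 to 531.8 with DASA-58. Of the 13 tested genes of eIF3, the translation initiation factor whose architecture resembles the lid, 3 fell (Eif3g, Eif3l and Eif3b), 0 rose and the median was -0.082. Of the 10 genes of the COP9 signalosome, the other complex built like the lid, 0 passed the test and the median was -0.021. In 0 of them were the groups without overlap, against 21.6% lower and 11.8% higher of all genes tested. Their levels were lower, with a median of 25.2 FPKM beside 55.7 FPKM for the 42 members. These differences between complexes were not tested.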
